A study of Mus musculus with 4 samples.

Results

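A set of 10 genes that encode surface proteins of monocytes and macrophages was followed in leukemia cells from mouse bone marrow. They are Csf1r, Cd14, Fcgr1, Fcgr3, Ly6c2, Ccr2, Cx3cr1, Adgre1, Ms4a6c and Vcam1, taken by symbol from a deposited table of 55339 genes. All 10 were found, and all 10 passed the filter on low values that left 17303 genes for testing. The cells came from C57BL/6 mice, with 2 libraries labelled WT (replicates 4 and 5) and 2 labelled YBX1-/- (replicates 1 and 3, titled cKO). Knockout replicate 3 is titled RNA-seq2 and the other libraries RNA-seq1. What this number stands for is not given, so the gap between the knockout libraries may include it. YBX1 binds mRNA through its cold-shock domain, and the title of the series asks about the survival of myeloid leukemia cells and the stability of their mRNA. The oncogene that drives the leukemia, the Cre driver and the age of the mice are not given in the sources used here. Neither do the labels say that the replicates come from separate animals, so the spread between them may be technical.

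Monocytes leave the bone marrow, circulate, and can become macrophages in tissues. CSF1R, the receptor for the growth factors CSF1 and IL-34, supports their survival and differentiation, and CCR2, the receptor for CCL2 and CCL7, draws the classical Ly6C-high monocytes out of the marrow. The non-classical, patrolling monocytes carry little Ly6C and much CX3CR1, the fractalkine receptor. CD14 hands bacterial lipopolysaccharide to TLR4, the Fc gamma receptors bind immunoglobulin G on coated particles, and F4/80, the product of Adgre1, is a classical macrophage antigen. Acute myeloid leukemia cells often carry part of this surface program.

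Upstream regions of 4 genes are shown because PU.1, the product of Spi1 and a main regulator of monocyte surface genes, binds purine-rich DNA with a GGAA core. RefSeq promoter windows (GRCm38.p6) were matched by symbol for 6 of the 10 genes: Fcgr1, Fcgr3, Ly6c2, Ccr2, Cx3cr1 and Ms4a6c. Each run below is the 250 bases before the RefSeq start, 5′ to 3′ on the gene's strand, with Fcgr1, Fcgr3 and Ly6c2 on the minus strand and Ms4a6c on the plus strand. The coordinates are chr3:96293970-96294219 for Fcgr1, chr1:171059404-171059653 for Fcgr3, chr15:75111972-75112221 for Ly6c2 and chr19:11469118-11469367 for Ms4a6c. Capitals mark matches on either strand to GAGGAA, a core of the PU.1 site, or to TTGCNNAA, a C/EBP-type site. The motifs do not overlap each other in these regions.
Fcgr1: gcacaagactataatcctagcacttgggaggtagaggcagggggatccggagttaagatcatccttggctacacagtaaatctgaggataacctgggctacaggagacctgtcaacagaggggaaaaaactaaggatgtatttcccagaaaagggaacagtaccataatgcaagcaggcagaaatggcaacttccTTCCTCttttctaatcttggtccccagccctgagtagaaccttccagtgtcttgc
Fcgr3: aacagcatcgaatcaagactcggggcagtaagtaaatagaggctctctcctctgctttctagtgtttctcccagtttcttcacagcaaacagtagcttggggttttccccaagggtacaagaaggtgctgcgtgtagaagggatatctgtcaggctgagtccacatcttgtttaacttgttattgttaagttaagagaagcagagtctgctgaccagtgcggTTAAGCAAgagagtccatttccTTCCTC
Ly6c2: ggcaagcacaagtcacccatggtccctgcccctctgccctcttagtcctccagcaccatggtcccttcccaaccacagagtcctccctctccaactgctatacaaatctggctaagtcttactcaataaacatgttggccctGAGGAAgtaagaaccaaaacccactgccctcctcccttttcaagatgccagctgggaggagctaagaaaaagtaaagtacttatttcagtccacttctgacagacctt
Ms4a6c: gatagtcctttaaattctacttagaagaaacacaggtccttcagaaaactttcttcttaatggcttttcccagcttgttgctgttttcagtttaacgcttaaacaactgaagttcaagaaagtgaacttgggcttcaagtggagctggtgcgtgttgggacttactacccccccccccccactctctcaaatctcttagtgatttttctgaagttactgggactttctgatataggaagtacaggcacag
GAGGAA lay in the windows of Fcgr1, Fcgr3 and Ly6c2, 3 of the 6 matched genes, and in 28.3% of 27025 promoters of the same 300-base length. In each of those 3 genes 1 match stood before the start. The regions of Ccr2 and Cx3cr1, not printed, lie mostly or wholly inside the GENCODE span of the gene. The printed region of Fcgr3 also lies inside the GENCODE span of its gene, although it precedes the RefSeq start. TTGCNNAA lay in the window of Fcgr3 alone among the 6, and in 10.8% of all promoters. Ms4a6c held neither motif. A match describes letters and is not a measured binding site.

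Ybx1, the targeted gene, stood at 7.29 and 8.33 in the knockout libraries, against 10.002 in WT replicate 5 and 19.70 in WT replicate 4. The values of WT replicate 4 were spread unlike those of the others: 824 of the tested genes lay above a log2 value of 18 there, against 0 or 1 in each other library, and 33.2% lay between 4.5 and 6, against 10.4% to 10.9%. Between WT replicate 4 and WT replicate 5 the median absolute difference over all tested genes was 1.40, against 0.46 between the knockout libraries. Each result is therefore given against both WT libraries and against WT replicate 5 alone. Pairs of values are in the order of knockout replicates 1 and 3, then WT replicates 5 and 4, unless named otherwise. No counts were given, so depth is unknown, and 2 libraries against 2 cannot go below p = 0.333 in a two-sided exact permutation test of a single gene.

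In most of the 10 genes the WT libraries differed from each other by more than the knockout libraries did. WT replicate 4 and WT replicate 5 were over 1 log2 apart in 9 of the 10, and this WT gap was wider than the gap between the knockout libraries in 9 of the 10, as it was in 80% of all tested genes. Cd14, Fcgr3 and Fcgr1 were higher in WT replicate 4 than in every other library, and the other 7 genes were lower there than in every other library. Of those 7, the genes Ccr2, Cx3cr1, Ms4a6c and Vcam1 lay between 5.21 and 5.77 in WT replicate 4, inside the crowded range from 4.5 to 6. WT replicate 5 and the knockout libraries placed none of the 10 in that range. The plot of the 10 genes by library shows the split.

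**Figure D1:**
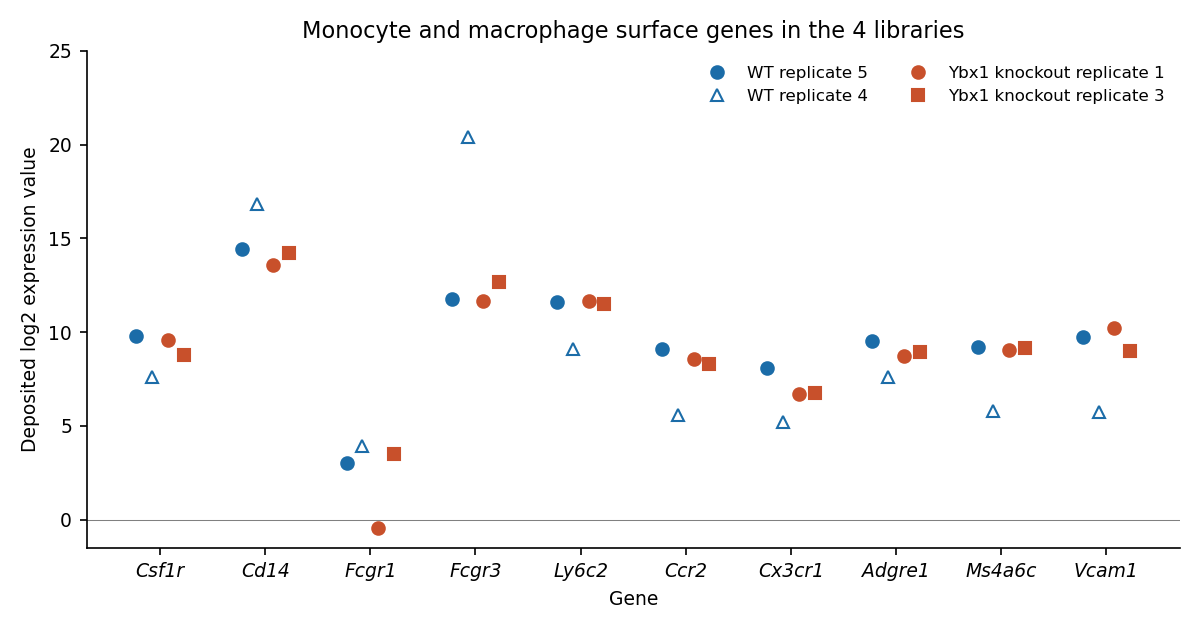
Deposited log2 expression value (y axis) of each of the 10 genes (x axis) in the 2 WT libraries (blue) and the 2 Ybx1 knockout libraries (orange), 1 point per library. WT replicate 4, the open triangle, lies outside the range of the other 3 libraries for all 10 genes, above it for Cd14, Fcgr1 and Fcgr3 and below it for the other 7.

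By limma across all 17303 genes, 0 of the 10 genes passed at an adjusted p under 0.05, and neither did any other gene (0% of those tested, with 651 genes at an unadjusted p under 0.05, none of them among the 10). Without WT replicate 4 the count was again 0 of 10 and 0% of all genes tested, with 1799 genes at an unadjusted p under 0.05. Cx3cr1 was 1 of those 1799. The 10 genes are also set beside the 9144 tested genes that reached log2 5 in at least 2 libraries, a class that holds 9 of the 10, all but Fcgr1. In 1 of the 10 genes, Cd14, the knockout pair lay below both WT libraries, as it did in 18.8% of all tested genes and 9.3% of the 9144. In 0 of the 10 it lay above both, against 17.3% of all tested genes and 30.8% of the 9144. Against WT replicate 5 alone both knockout values were lower in 6 of the 10, against 33.4% of all tested genes and 35.2% of the 9144, and higher in 0, against 41.8% and 39.5%. The 6 were Csf1r, Cd14, Ccr2, Cx3cr1, Adgre1 and Ms4a6c. Against WT replicate 4 alone the pair was lower in 3 of the 10, against 50.7% of all tested genes and 21.8% of the 9144. It was higher in 7 of the 10, against 38.5% of all tested genes and 70.6% of that class, so the members' count lay near the share of the 9144. A fit with that library as the only WT called 6 of the 10, beside 28.7% of all tested genes. The median of the 10 differences from WT replicate 5 was -0.57, beside 0.07 over all tested genes and 0.03 over the 9144. With both WT libraries the median of the 10 was 0.39, of the opposite sign, beside -0.09 over all tested genes and 0.601 over the 9144. These cells were measured in bulk, so fewer cells of a type and less RNA per cell cannot be told apart.

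Csf1r, the receptor tyrosine kinase for CSF1 and IL-34, was at 9.57 and 8.80 in the knockout libraries, 9.80 in WT replicate 5 and 7.60 in WT replicate 4. Both knockout values lay between the WT values, so the groups overlapped. The limma difference, knockout minus WT, was 0.48 (SE 1.07, adjusted p = 0.901), and against WT replicate 5 alone it was -0.62 (SE 0.47, adjusted p = 0.688). Of the receptor's ligands, Csf1 was at 7.34 and 6.22 in the knockout pair, 8.08 in WT replicate 5 and 5.21 in WT replicate 4, and Il34 was listed at 0 in all 4 libraries. Of 10 genes of CSF1R signalling, the pair lay below both WT libraries in 1 and above both in 0, beside 18.8% and 17.3% of all tested genes. That gene was Stat3, a transcription factor activated downstream of cytokine receptors, at 10.31 and 10.53 in the knockout pair, 10.89 in WT replicate 5 and 20.54 in WT replicate 4. Measured against WT replicate 5 alone, 5 of the 10 signalling genes were lower in both knockout libraries and 0 higher, beside 33.4% and 41.8% of all tested genes.

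Cd14, the co-receptor for lipopolysaccharide, was at 13.60 and 14.20 in the knockout libraries, 14.42 in WT replicate 5 and 16.84 in WT replicate 4. Its groups did not overlap, but the lower WT value and the higher knockout value were 0.21 log2 apart, less than the 0.61 between the knockout libraries. The limma difference was -1.73 (SE 6.21, adjusted p = 0.937) and -0.52 (SE 0.40, adjusted p = 0.698) without WT replicate 4. After quantile normalization of the 4 libraries the difference was 1.90, of the opposite sign, and WT replicate 4 then stood at 11.94 and WT replicate 5 at 16.19. The authors' deposited table gives Cd14 a log2 fold change of -3.54, and its adjusted p there, 0.213, was not under 0.05.

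Tlr4, the receptor to which CD14 passes its ligand, lay on the other side, at 8.25 and 8.68 in the knockout pair, 7.48 in WT replicate 5 and 5.66 in WT replicate 4. Ly96, which encodes the TLR4 partner MD-2, ranged from 4.60 to 4.84 over the 4 libraries. Tlr2, a receptor for bacterial lipoproteins that also works with CD14, was at 9.52 and 9.53 in the knockout pair, beside 10.81 and 7.75 in WT replicates 5 and 4. Of the 12 genes of CD14 and TLR4 signalling, the knockout pair lay below both WT libraries in 2 and above both in 3, beside 18.8% and 17.3% of all tested genes. Cd180, a TLR-like receptor, was at 3.45 and 4.64 against 7.05 in WT replicate 5 and 4.69 in WT replicate 4, and the adaptor ubiquitin ligase gene Traf6 was at 7.91 and 7.31 against 6.94 and 5.44. None of the 12 passed limma's test, and the authors' deposited table called none of them.

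Fcgr3, a low-affinity Fc gamma receptor that needs a signalling partner chain, stood at 11.66 and 12.68 in the knockout pair and at 11.76 in WT replicate 5, but at 20.41 in WT replicate 4. The knockout values enclosed WT replicate 5, and WT replicate 4 alone lay far above. The limma difference was -3.91 (SE 5.32, adjusted p = 0.856). Without WT replicate 4 it was 0.41 (SE 0.59, adjusted p = 0.777), so the direction turned. In the authors' deposited table Fcgr3 was the 1 gene of the 10 called, and there its log2 fold change was -7.07 (adjusted p = 0.00570). That table called 3.83% of its 20610 genes with a fold change lower and 0.131% higher.

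Fcer1g, the common gamma chain that carries the signal of Fcgr3 and Fcgr1, had the same layout, at 11.58 and 12.35 in the knockout pair, 12.26 in WT replicate 5 and 19.99 in WT replicate 4. The authors' deposited table gives it a log2 fold change of -7.01. Tyrobp, the adaptor DAP12, was at 12.22 and 13.37 against 12.61 and 20.11. Syk, the kinase that binds both adaptors, was at 9.56 and 8.92 against 9.91 and 19.62. In each of these 3 genes WT replicate 4 exceeded WT replicate 5 by over 7 log2 units while both knockout values lay within 1 log2 unit of WT replicate 5.

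Fcgr1, the high-affinity Fc gamma receptor, had the widest gap between the knockout libraries of the 10 genes, 3.97. It was at -0.45 in knockout replicate 1, 3.52 in knockout replicate 3, 3.04 in WT replicate 5 and 3.92 in WT replicate 4. The gene was low, and its value in knockout replicate 1 was under the filter level of 0. Among the tested genes it stood at percentile 2.65 in that library and at 32.5 to 38.9 in the others. Knockout replicate 3 lay between the WT libraries, and knockout replicate 1 lay below all others. The limma difference was -1.94 (SE 1.497, adjusted p = 0.826), and it was 0.04 without knockout replicate 1, so its direction rests on that library. Fcgr2b, the inhibitory Fc gamma receptor, was at 11.74 and 11.69 in the knockout pair, beside 11.26 and 10.39 in WT replicates 5 and 4, above both. Fcgrt, which encodes the neonatal Fc receptor, was at 3.68 and 3.92 against 6.93 in WT replicate 5 and 4.84 in WT replicate 4, below both. Of the 9 tested Fc receptor relatives and signalling genes, 2 lay below both WT libraries and 2 above, beside 18.8% and 17.3% of all tested genes. By limma none was called.

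**Figure D2:**
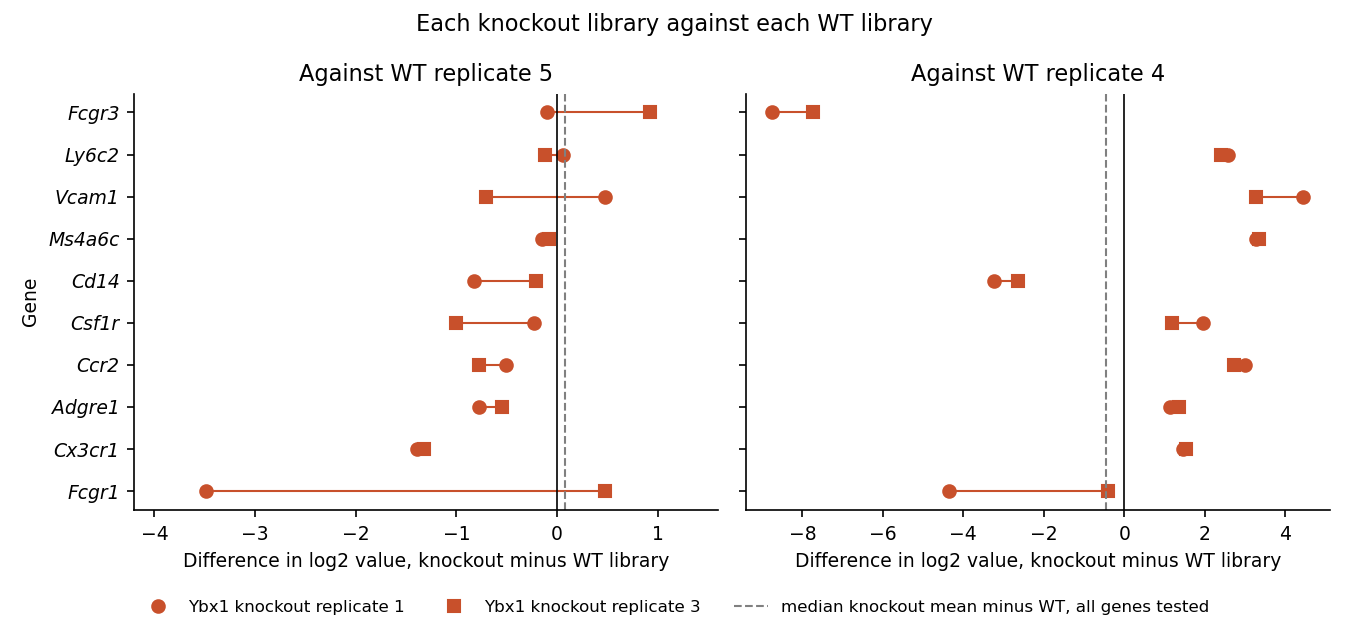
Difference in log2 value (x axis) of each knockout library from WT replicate 5 (left) and from WT replicate 4 (right) for the 10 genes (y axis), with a line joining the 2 knockout libraries and a dashed line at the median knockout mean minus that WT library over all tested genes, 0.07 on the left and -0.46 on the right. The x axes have different ranges. Against WT replicate 5 Cx3cr1 lies at -1.39 and -1.32, and against WT replicate 4 it lies above 0.

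Cx3cr1, the fractalkine receptor of patrolling monocytes, had the widest distance from WT replicate 5 relative to the knockout pair. It was at 6.68 and 6.75 in the knockout libraries, 8.07 in WT replicate 5 and 5.21 in WT replicate 4. The knockout libraries were 0.07 apart and lay between the WT libraries, which were 2.86 apart. Over both WT libraries the limma difference was 0.07 (SE 1.12, adjusted p = 0.988). Against WT replicate 5 alone it was -1.36 (SE 0.27), a 2.56-fold lower level that limma did not call. Its ligand gene Cx3cl1 was at 1.998 and 4.49 in the knockout pair, beside 3.71 and 4.29 in WT replicates 5 and 4, with no separation.

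Ccr2, the receptor that draws classical monocytes from the marrow, was at 8.57 and 8.30 in the knockout libraries, 9.07 in WT replicate 5 and 5.58 in WT replicate 4. The knockout values again lay between the WT values, nearer to WT replicate 5. The difference was 1.11 (SE 1.32, adjusted p = 0.837) over all libraries and -0.64 (SE 0.25, adjusted p = 0.531) without WT replicate 4. Of 4 genes for CCR2 ligands, the knockout pair lay below both WT libraries in Ccl2, at 4.35 and 4.06 against 6.20 and 4.69, and in Ccl7, at 1.52 and 2.14 against 3.52 and 3.98. The limma adjusted p of these 2 genes was 0.826 each. Ccl12 was near 0 and overlapped, at 0.40 and -0.20 against -0.20 and 0.56, and Ccl8 was listed at 0 in all 4 libraries. Of the 9 tested ligand and counter-receptor genes of the members, 2 (22.2%) lay below both WT libraries and 2 (22.2%) above, beside 18.8% and 17.3% of all tested genes.

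Adgre1, which encodes F4/80, was at 8.73 and 8.96 in the knockout libraries, 9.50 in WT replicate 5 and 7.60 in WT replicate 4. The knockout libraries lay between the WT libraries. The difference was 0.29 (SE 0.95, adjusted p = 0.932) and, against WT replicate 5 alone, -0.66 (SE 0.23, adjusted p = 0.511). In 4 of the 10 genes, Cx3cr1, Ccr2, Adgre1 and Ms4a6c, the knockout mean was farther from WT replicate 5 than the knockout libraries were from each other, which also held for 50.7% of all tested genes.

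Ly6c2 and Ms4a6c, both surface genes of classical monocytes, had nearly the same values in the knockout libraries and WT replicate 5. Ly6c2, which encodes the Ly6C antigen, was at 11.65 and 11.48 in the knockout pair, 11.60 in WT replicate 5 and 9.08 in WT replicate 4. Ms4a6c, a member of the MS4A four-pass membrane family, was at 9.06 and 9.13 in the knockout pair, 9.21 in WT replicate 5 and 5.77 in WT replicate 4. Against WT replicate 5 alone the differences were -0.03 (SE 0.20) for Ly6c2 and -0.12 (SE 0.19) for Ms4a6c, and with Vcam1, at -0.12 (SE 0.68), these were the 3 smallest of the 10. Over both WT libraries they were 1.23 (SE 1.48, adjusted p = 0.839) and 1.601 (SE 1.31, adjusted p = 0.826).

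Copies of these genes can share reads. Of the 50-base stretches of the longest Ly6c2 coding transcript in GENCODE M21, 32.6% occur also in Ly6c1, and Ly6c1 was listed between 0.12 and 0.74 in the 4 libraries. For Fcgr3, 12.8% occur in Fcgr2b, and for Ms4a6c, 11.3% occur in other genes, 6.08% in Ms4a6b. Ms4a6b itself was at 6.55 and 6.57 in the knockout pair, 4.30 in WT replicate 5 and 7.002 in WT replicate 4, a different order from Ms4a6c. On the opposite strand, the non-coding gene BE692007 overlaps 53.1% of the exon bases of Ms4a6c, and Hmgxb3 overlaps 15.1% of those of Csf1r. Whether the counting used strand is not given in the sources used here, so these values may include reads of the partner gene. How reads with more than 1 match were counted is also not given.

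Vcam1, an adhesion molecule that binds the integrin VLA-4 and that marrow macrophages, stromal cells and some leukemia cells carry, was at 10.20 and 9.02 in the knockout libraries, 9.72 in WT replicate 5 and 5.75 in WT replicate 4. The knockout values enclosed WT replicate 5, and WT replicate 4 lay far below all 3. The limma difference was 1.87 (SE 1.53, adjusted p = 0.826) and turned to -0.12 without WT replicate 4. The integrin genes of its partner were at 8.38 and 7.46 in the knockout pair, beside 7.45 and 20.21 in WT replicates 5 and 4 for Itga4, and at 9.55 and 9.33 against 9.29 and 7.65 for Itgb1. The authors' deposited table lists Itga4 with a log2 fold change of -11.47 but a p-value of 1. Among 4475 genes that have in that file a fold change beyond 5 log2 units in either direction, 1113 had a p-value of 1.

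Markers of other cells that could carry Vcam1, Adgre1 or Csf1r were then read. Among 12 markers of resident marrow macrophages, Vcam1 included, C1qa, Cd5l, Siglec1 and Mertk did not pass the filter on low values. They had values from -1.37 to 0.31 in all 4 libraries and no deposited fold change. Other markers of that list were present: the heme oxygenase gene Hmox1 was at 8.04 and 9.004 in the pair and 9.12 and 5.63 in WT replicates 5 and 4. The iron exporter gene Slc40a1 was at 7.33 and 5.63 against 6.25 and 7.12, Spic at 5.49 and 4.69 against 4.97 and 4.63, and Axl at 3.38 and 2.11 against 3.997 and 3.58. C1qc was at 2.08 and 1.14 against 2.61 and 2.67. C1qb and Cd163 were highest in WT replicate 4, at 1.22 and 1.37. The summed linear level of the list without Vcam1 was 240 and 689 in WT replicates 4 and 5 and 490 and 600 in the pair. Hmox1 and Slc40a1 together carried most of that sum in every library. Of 11 stromal or endothelial markers, Lepr and Col3a1 were listed at 0 and Cxcl12, Col1a2, Cdh5, Emcn and Kitl were below 0 in all libraries. Pecam1, which many leukocytes also carry, was between 6.10 and 6.93 in every library, while Col1a1 reached 4.01 and Pdgfrb 4.26, both in WT replicate 4, and Kdr 1.10. The summed level of the list was 161 and 75.5 in WT replicates 4 and 5 and 102 and 81.8 in the pair, most of it from Pecam1. Among 9 T or NK cell markers Cd3e, Cd3g, Cd8a and Cd4 were listed at 0 in all libraries. Nkg7, a cytotoxic granule gene, was at 9.37 and 9.45 in the pair, 8.41 in WT replicate 5 and 19.38 in WT replicate 4, and Il7r at 1.94 and 3.65 against 5.65 and 4.51. The summed level of these 9 was 667 and 714 in the pair, 393 in WT replicate 5 and 680996 in WT replicate 4. Most of it came from Nkg7 in every library. Of 11 neutrophil markers the pair lay below both WT libraries in 6 (54.5%) and above both in 0, beside 18.8% and 17.3% of all tested genes. Their summed level was 136892 and 143360 in the pair, 175439 in WT replicate 5 and 21732100 in WT replicate 4. Elane carried most of it in the pair and in WT replicate 4, but not in WT replicate 5. Elane was at 16.48 and 16.55 in the pair, against 15.84 and 23.52. Against WT replicate 5 alone 7 of the 11 were lower and 1, Elane, higher, beside 33.4% and 41.8% of all tested genes. Of the lower genes, Camp was at 12.04 and 12.36 against 14.87 and 19.41, and Ltf at 6.49 and 6.38 against 10.71 and 8.90. The part of these markers of other cells in the results for the 10 genes was not tested.

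**Figure D3:**
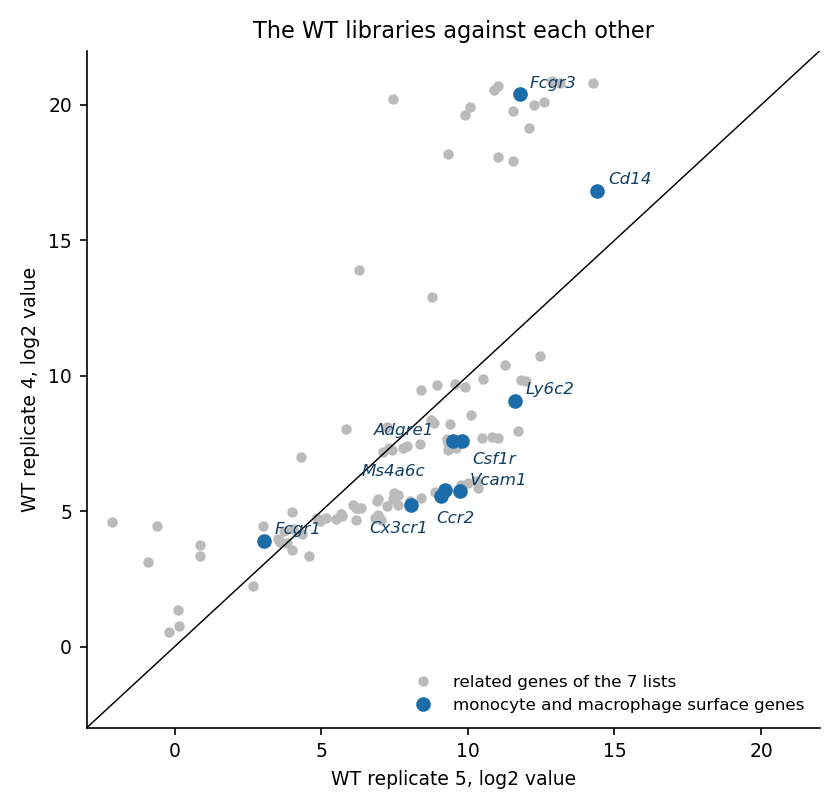
Log2 value in WT replicate 4 (y axis) against WT replicate 5 (x axis) for the 10 genes (blue, named) and the 96 tested genes of the 7 related lists (grey), with the line of equality. Fcgr3 joins a band of 14 related genes above 18 in WT replicate 4, and Ccr2, Cx3cr1, Ms4a6c and Vcam1 lie in the band between 4.5 and 6.

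The wider monocyte program was read from 7 lists with 103 genes, of which 96 were tested. None passed limma's test with or without WT replicate 4. The knockout pair lay below both WT libraries in 24 of the 96 (25%) and above both in 12 (12.5%), beside 18.8% and 17.3% of all tested genes and 9.3% and 30.8% of the 9144 genes that reached log2 5. Against WT replicate 5 alone 53 (55.2%) were lower in both knockout libraries and 22 (22.9%) higher, beside 33.4% and 41.8%. The median difference from WT replicate 5 was -0.38. The authors' deposited table has calls in the lower direction for 11 of the 96 and in the higher direction for 0, beside 3.83% and 0.131% of its genes, and in 14 of the 96 WT replicate 4 stood above 18.

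Among 15 monocyte transcription factors, the knockout pair lay below both WT libraries in 6 (40%) and above both in 1 (6.67%), beside 18.8% and 17.3% of all tested genes. The pair was lower than WT replicate 5 alone in 8 (53.3%) and higher in 3 (20%), beside 33.4% and 41.8%. Klf4, required for monocyte differentiation, was at 0.23 and 2.56 against 4.36 and 4.15, and Id2, an inhibitor of basic helix-loop-helix factors, at 7.38 and 8.62 against 9.90 and 9.58. Spi1, which encodes PU.1, was at 13.13 and 13.31 in the knockout pair, 13.16 in WT replicate 5 and 20.81 in WT replicate 4. Fcgr1, Fcgr3 and Ly6c2, whose windows hold GAGGAA above, did not share 1 order over the libraries. WT replicate 4 was the highest for the Fc receptors and the lowest for Ly6c2. A link between the motif or Spi1 and these values was not tested. Irf8, a factor of monocyte progenitors, was at 6.48 and 5.596 against 6.83 and 4.74.

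Of 27 tested surface genes of monocytes and macrophages beyond the 10, the pair lay below both WT libraries in 10 (37%) and above both in 3 (11.1%), beside 18.8% and 17.3% of all tested genes. It was lower than WT replicate 5 alone in 18 (66.7%) and higher in 4 (14.8%), beside 33.4% and 41.8%. Treml4, a receptor of non-classical monocytes, was at 6.86 and 6.31 in the knockout pair, 9.39 in WT replicate 5 and 8.22 in WT replicate 4. The authors' deposited table called it lower, by a log2 fold change of -2.78 (adjusted p = 0.00763), while limma gave a difference of -2.22 (SE 0.77) and an adjusted p of 0.826. Trem2, a lipid-sensing receptor of macrophages, was at -0.03 and -0.05 against 2.67 and 2.24, and the integrin gene Itgax at 3.62 and -0.39 against 3.83 and 3.81. Both genes were low, with Trem2 in the pair under the filter level of 0. For Itgax the knockout libraries were 4.02 apart. Mertk, Siglec1 and Mrc1 of this list did not pass the filter on low values. The authors' deposited table has calls in the lower direction for 5 of the 27 and in the higher direction for 0, beside 3.83% and 0.131% of its genes. Besides Treml4 these were Cd68, Csf2ra, Csf2rb and Lgals3, each at 17.92 or higher in WT replicate 4. WT replicate 4 stood above 18 in 5 of the 27, beside 4.76% of all tested genes.

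**Figure D4:**
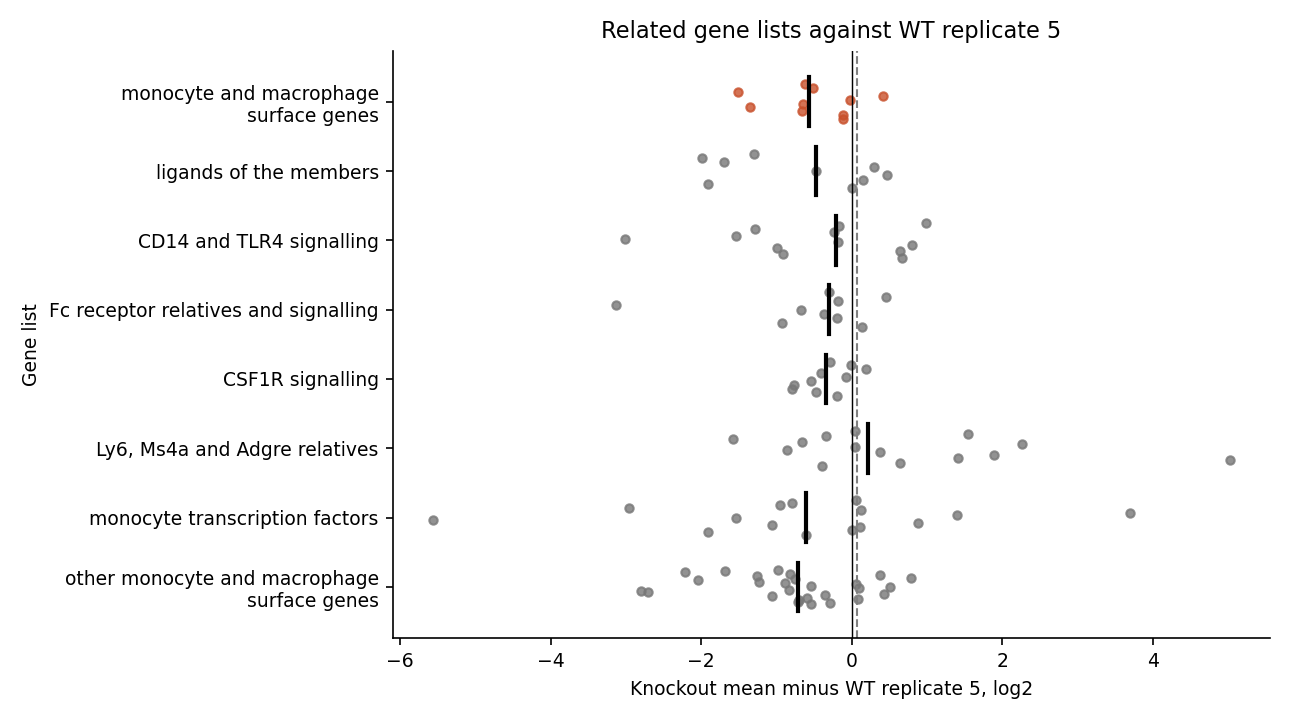
Difference of the knockout mean from WT replicate 5 on the log2 scale (x axis) for each tested gene (points) of the 10 surface genes (orange) and of the 7 related lists (grey), with the median of each list as a black bar and the median of all tested genes, 0.07, as a dashed line. The median is -0.57 for the 10 genes and -0.71 for the other surface genes, and it is above 0, at 0.21, for the relatives of the Ly6, Ms4a and Adgre families.

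Relatives of the Ly6, Ms4a and Adgre families lay on both sides. Of 14 tested, 1 was below both WT libraries and 1 above, beside 18.8% and 17.3% of all tested genes. Ly6g, a neutrophil antigen, was at 2.77 and 2.14 in the knockout pair, beside 4.03 and 4.34 in WT replicates 5 and 4, and Ms4a4a at 7.14 and 7.38 against 6.89 and 5.38. Ms4a6d, the closest neighbour of Ms4a6c in name, was at 7.70 and 7.96 against 7.79 and 7.32.

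The genes named for their high level in non-classical monocytes can be set beside those of classical monocytes, a grouping made after the values had been seen. Cx3cr1, Treml4 and Nr4a1, the nuclear receptor gene that non-classical monocytes depend on, had knockout means 1.36, 2.81 and 1.54 log2 below WT replicate 5. Against WT replicate 4, at 5.21, Cx3cr1 was instead higher in both knockout libraries, at 6.68 and 6.75. Nr4a1 was at 9.32 and 8.62 against 10.51 in WT replicate 5 and 9.86 in WT replicate 4. Spn, which encodes CD43 and is also high in that subset, was at 7.72 and 5.80 against 7.11 and 7.20 and did not separate. Fcgr4 and Cebpb, listed genes left out of this grouping, were not lower than WT replicate 5 in both knockout libraries. Fcgr4 was at 5.32 and 6.51 against 6.09 and 5.24 in WT replicates 5 and 4, and Cebpb at 9.47 and 10.49 against 6.28 and 13.92. Their knockout means differed from WT replicate 5 by -0.18 for Fcgr4 and 3.70 for Cebpb. The difference of Cebpb was thus larger than that of Cx3cr1, Treml4 or Nr4a1, and of opposite sign. Both knockout values were lower than WT replicate 5 in 33.4% of all tested genes. Of the classical genes Ly6c2, Ccr2 and Ms4a6c, the knockout means differed from WT replicate 5 by -0.03, -0.64 and -0.12. The difference between these groups of genes was not tested.

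Positions of the members are those of GENCODE M21 on GRCm38, and all are annotated as protein-coding genes. Fcgr1 lies on chromosome 3 from 96282909 to 96293969 and Vcam1 on the same chromosome from 116109949 to 116129688, both on the minus strand. Cx3cr1 (119901616 to 120069879, minus strand) and Ccr2 (124101950 to 124113557, plus strand) lie on chromosome 9. Fcgr3 is on chromosome 1 from 171051174 to 171064935 and Ly6c2 on chromosome 15 from 75108158 to 75111970, both on the minus strand. Adgre1 is on chromosome 17 from 57358691 to 57483527 and Ms4a6c on chromosome 19 from 11469366 to 11482192, both on the plus strand.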

How the data were processed

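Polyadenylated RNA of 4 libraries was sequenced, 2 per genotype. Tools named in the submitters' processing notes, without role or order, are HISAT2 2.1.0, featureCounts, CASAVA and DESeq2, and the build is GRCm38. The authors deposited normalized log2 values per gene and library, by a method not given in the sources used here, together with their own log2 fold change, p-value and adjusted p-value. That fold change is headed WT vs. cKO and was read as knockout over WT. Depth is unknown.

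From these values, limma 3.58.1 in R 4.3.3, with a mean-variance trend, was fitted to the 17303 genes with a log2 value of at least 0 in at least 2 libraries, with Benjamini-Hochberg adjustment over all of them and calls at an adjusted p under 0.05. SE is limma's moderated standard error. Without WT replicate 4 only the knockout pair gives a spread, which the lone WT library is taken to share. The fit was tested on simulated data with the same spread in every gene and library. That test does not show how the fit handles a library spread like WT replicate 4. Summed marker levels are sums of 2 to the power of the log2 value, with a value of 0 counted as 0. Tables of proteins were not used here, so shared 50-base stretches of GENCODE transcripts replaced a planned protein comparison. Members and lists were chosen with earlier results of these data known. Named genes were the members, their direct partners and, from each related list, up to 3 genes whose knockout pair lay outside the WT range and had the largest distance from WT replicate 5. Genes outside that rule, such as Spi1, Irf8, Nr4a1 and Spn, were chosen after their values were seen. Some genes of the lists are counted but not reported here by name. The 11 alternatives left out each library, changed the filter, pseudocount, scaling or trend, or combined centring with removal of WT replicate 4.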

Additional observations from a re-analysis of the deposited data

How the results depend on the processing

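No paired analysis was possible because the WT and knockout libraries share no replicate number. Leaving out single libraries gave 0 to 4960 limma calls over all genes: 0 without WT replicate 4, 4960 without WT replicate 5, 26 without knockout replicate 1 and 88 without knockout replicate 3, the last of which leaves only libraries titled RNA-seq1. Every other setting gave 0 calls. Members with both knockout values below the WT values numbered 1 to 6 when a library was left out, 0 after quantile normalization and 5 after median centring without WT replicate 4, against 1 in the reported setting. Members above numbered 0 to 7 when a library was left out, 1 after median centring and 1 after median centring without WT replicate 4, against 0. The median difference of 0.39 ranged from -0.57 to 1.54 over the libraries left out. Without WT replicate 5, where the lone WT library is replicate 4, 6 members passed limma's test: Cd14 (-2.94), Fcgr3 (-8.24), Ly6c2 (2.49), Ccr2 (2.86), Ms4a6c (3.32) and Vcam1 (3.86). Csf1r (1.58), Cx3cr1 (1.499) and Adgre1 (1.24) did not pass there.

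Directions turned without WT replicate 4 for 8 of the 10 members, at -0.62 for Csf1r, 0.41 for Fcgr3, -0.030 for Ly6c2, -0.64 for Ccr2, -1.36 for Cx3cr1, -0.66 for Adgre1, -0.12 for Ms4a6c and -0.12 for Vcam1. With median centring as well, 7 turned, at -0.54 for Csf1r, 0.49 for Fcgr3, -0.57 for Ccr2, -1.28 for Cx3cr1, -0.59 for Adgre1, -0.043 for Ms4a6c and -0.041 for Vcam1. Quantile normalization turned Csf1r (-0.12), Cd14 (1.90), Fcgr3 (0.29), Cx3cr1 (-0.53) and Adgre1 (-0.32). Median centring of all libraries turned Cx3cr1 (-0.064), and leaving out knockout replicate 1 turned Fcgr1 (0.040), which stood at -3.93 without knockout replicate 3. The cause was not tested. The stricter filter of log2 5 left out Fcgr1. No counts were given, so what depth limits is unknown.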

Other observations

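Dendritic cells share Csf1r, Cx3cr1 and Adgre1 with monocytes in part, and their markers showed no common direction. Of 8 tested markers, the knockout pair lay below both WT libraries in 1 and above both in 1, beside 18.8% and 17.3% of all tested genes. Cd209a, a lectin of monocyte-derived dendritic cells, was at 2.85 and 2.35 in the knockout pair, 5.34 in WT replicate 5 and 3.78 in WT replicate 4. Xcr1, a chemokine receptor of cross-presenting dendritic cells, was at 6.19 and 5.75 in the pair, 4.97 in WT replicate 5 and 6.95 in WT replicate 4. Siglech, a marker of plasmacytoid dendritic cells, was listed at 0 in all 4 libraries. Erythroid and megakaryocyte markers reached at most 5.41 in WT replicate 5 and the knockout libraries, for Itga2b in WT replicate 5, while Hba-a2 stood at 6.19 in WT replicate 4.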
